A study of Mus musculus with 2 samples.

Results

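Hepatocyte growth factor (HGF) and fibroblast growth factor (FGF) signals to muscle stem cells were followed through 7 genes in single-nucleus RNA sequencing of mouse tibialis anterior, a shin muscle. They are the ligands Hgf, Fgf1, Fgf2 and Fgf7 and the receptors Met, Fgfr1 and Fgfr4. They were matched by symbol, and all 7 were found once among the 32285 genes counted. Nuclei came from male mice aged 16 to 20 weeks that had chronic kidney disease. They were taken 5 days after the femoral artery, the main vessel feeding the leg, had been ligated. One library was labelled AHRfl/fl and 1 AHRmKO.

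Both groups carry the same strain label: a cross of AHRtm3.1Bra/J mice, whose Ahr gene (aryl hydrocarbon receptor) has recombination sites, and the line Tg(ACTA1-cre/Esr1*)2Kesr/J, in which a skeletal muscle actin promoter drives a Cre recombinase fused to a mutant oestrogen receptor. The label does not say whether AHRfl/fl animals carry the transgene. How kidney disease and Cre activity were induced is not given in the sources used here, nor is the number of animals behind each library. Since each group is 1 library, no difference has a replicate check and none carries a p-value. Every interval below is at 95% and covers counting error only.

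Satellite cells are the stem cells of skeletal muscle, marked by the transcription factor Pax7. After injury they leave quiescence, divide as myoblasts, switch on Myog and fuse into new fibres. HGF, sensed by the receptor tyrosine kinase MET, is the classical signal that activates them. FGF ligands act through FGF receptors, need heparan sulfate on the cell surface, and promote myoblast division through ERK signalling. FGF7 is a mesenchymal ligand whose main receptor is an isoform of FGFR2.

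The AHRfl/fl library gave 15832 nuclei with a median of 3670 unique molecular identifiers (UMIs, 1 per captured RNA molecule), and the AHRmKO library 7520 with a median of 3599. Of 19056 and 9015 barcodes with at least 2000 UMIs, 43 were shared, which is 0.477% of the smaller set. Clustering gave 20 clusters, and 12 of these drew over 90% of their nuclei from a single library. The 7 classes with at least 50 nuclei in each library were compared, named from fixed markers. These held 2457 and 2047 satellite cell or myoblast-like nuclei (AHRfl/fl first, here and throughout), 3837 and 1587 immature myonucleus-like, 461 and 577 myofibre-like, 6530 and 2424 macrophage or monocyte-like, 1419 and 642 fibroadipogenic or fibroblast-like, 243 and 133 endothelial-like and 108 and 75 adipocyte-like. All markers of a class were detected in that class in both libraries. Clusters left unnamed held 774 and 15 nuclei (7070655 and 66674 UMIs). They are in no class and their gene levels are not given, so every ranking below is among the 7 classes. Shares of a gene's UMIs by class are over all nuclei, unnamed ones included. Myofibre-like nuclei were 2.91% and 7.67% of all, a split that depends on the clustering: with the libraries clustered separately this class held 1933 and 581 nuclei, and with assignment by marker score 897 and 1025. Immature myonucleus-like nuclei also carried the 14 myofibre markers, at a sum of 10976 and 18078 CPM beside 9692 and 12523 CPM of their own 11. Ahr in myofibre-like nuclei stood at 13.9 CPM in AHRfl/fl (34 UMIs; 9.62 to 19.4) and 5.96 CPM in AHRmKO (12 UMIs; 3.08 to 10.4), where CPM is UMIs per 1000000 UMIs of the class. Over all nuclei it stood at 30.8 and 35.5 CPM. The counts are per gene and do not show which part of a transcript is missing. Free RNA, taken up by droplets from broken cells, was estimated in macrophage-like and endothelial-like nuclei together. All their myofibre-marker UMIs were counted as free, so remaining doublets could raise the estimate. It was 27.7% and 13.6% of their UMIs with the profile of barcodes of at most 100 UMIs. It came to 18.2% and 17.5% with that of 200 to under 500 UMIs. The levels that free RNA would give, below, apply these shares to every class.

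On GRCm38, GENCODE M21 places Hgf on chromosome 5 (16553495 to 16620152), Met on chromosome 6 (17463800 to 17573980), Fgf2 on chromosome 3 (37348346 to 37410108) and Fgf7 on chromosome 2 (126034658 to 126091185). Fgfr1 lies on chromosome 8 (25513654 to 25575718) and Fgfr4 on chromosome 13 (55152640 to 55168759). All 6 are on the plus strand, and Fgf1 is on the minus strand of chromosome 18. Fgf7 lies wholly within Fam227b on the opposite strand, and Fgf1 wholly within an Arhgap26 entry that is not used here. Of the genes counted, AC110730.1 lies across from 37015 bases of Fgf1. Fgf2 shares 5199 bases with Nudt6, and Fgfr1 lies across from Gm16159. Whether counting used the strand is not stated, so the counts of these 4 members could include reads of their partners. Hgf, Met and Fgfr4 have no opposite-strand partner in that annotation.

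RefSeq windows of 250 bases before the start were at hand for 5 of the 7 members (GRCm38.p6), not for Fgf1 or Fgfr1. The stretches ahead of the GENCODE start are shown for the ligands with 1 leading source class and for the receptors that led in satellite-like nuclei. They are plus strand, 5′ to 3′, with matches to CANNTG (the E-box letters, the site family of myogenic factors) and GGGCGG (the GC box) in capitals.

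Hgf, chr5:16553245-16553494: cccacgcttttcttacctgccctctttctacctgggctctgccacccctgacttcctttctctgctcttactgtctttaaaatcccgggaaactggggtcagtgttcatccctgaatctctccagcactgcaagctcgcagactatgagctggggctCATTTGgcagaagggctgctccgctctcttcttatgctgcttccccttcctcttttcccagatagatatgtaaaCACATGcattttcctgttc

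Fgf7, chr2:126034408-126034657: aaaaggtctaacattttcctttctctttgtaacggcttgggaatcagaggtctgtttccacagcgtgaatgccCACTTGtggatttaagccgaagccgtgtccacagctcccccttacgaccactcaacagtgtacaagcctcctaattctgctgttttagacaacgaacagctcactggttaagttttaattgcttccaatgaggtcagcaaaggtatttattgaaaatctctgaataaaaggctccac

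Met, chr6:17463707-17463799: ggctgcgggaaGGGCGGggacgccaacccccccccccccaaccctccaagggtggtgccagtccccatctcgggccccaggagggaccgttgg

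Fgfr4, chr13:55152568-55152639: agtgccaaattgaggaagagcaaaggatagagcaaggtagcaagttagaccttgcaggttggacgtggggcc

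Over the full 250 bases, the share of G and C was 74.0% for Met, 64.0% for Fgfr4, 62.4% for Fgf2, 50.8% for Hgf and 43.6% for Fgf7, with a median of 52.4% over 32851 windows of that length. The GC box occurred 3 times in the Met window 2 times in that of Fgfr4 and once in that of Fgf2, and in none of the Hgf and Fgf7 windows. It is in 32.7% of all windows. CANNTG, in 66.2% of all windows, occurred once for Met and Fgf7, 2 times for the shown Hgf window and Fgfr4, and not for Fgf2 or the other Hgf window. In all, 5 motifs were searched on both strands, chosen after the windows had been seen, and the last 2, CANNTG and GGGCGG, after results of the first 3 had been seen. Of the first 3, CAGCTG (13% of windows, itself a CANNTG sequence) and GAGGAAGT (2.44%) matched no member window. GAGGAA (23.3%) matched once each in both Hgf windows and in that of Fgfr4. The shown stretch of Fgfr4 has no match in capitals, since its matches lie after the GENCODE start. A match is a description of letters, not a site.

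Hgf, the ligand of MET, came mainly from macrophage or monocyte-like nuclei in both libraries. That class held 4185 Hgf UMIs (189 CPM; 183 to 195) and 1961 UMIs (167 CPM; 160.0 to 175), which were 75.1% and 87.8% of all Hgf UMIs in nuclei. These shares move with class size and with the unnamed nuclei, 774 in AHRfl/fl and 15 in AHRmKO. They would be 49.5% and 65.9% if the 7 classes held equal UMIs and no other nuclei were counted. Next among the 7 classes came adipocyte-like nuclei in AHRfl/fl at 59.6 CPM (40 UMIs) and fibroadipogenic or fibroblast-like nuclei in AHRmKO at 37.9 CPM (117 UMIs). Macrophage-like nuclei thus stood above the next class by a log2 value of 1.66 (1.22 to 2.15) and 2.13 (1.87 to 2.42). Satellite-like nuclei had 8.06 and 7.20 CPM, and immature myonucleus-like nuclei 4.26 and 5.22 CPM. Free RNA would give 7.14 and 7.94 CPM by the profile of 200 to under 500 UMIs and 12.7 and 4.43 CPM by that of at most 100.

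After thinning to 2000 UMIs, 27.8% (26.7 to 28.9) and 21% (19.4 to 22.7) of macrophage-like nuclei held an Hgf UMI, against 1.71% and 1.66% of satellite-like nuclei. Unthinned shares were 37.7% and 35.1%, against 3.05% and 3.03%, at median depths of 2897.5 and 3281.5 UMIs in macrophage-like and 3681 and 3741 in satellite-like nuclei. Different clusters held most macrophage-like nuclei in the 2 libraries: clusters 0, 1 and 2 in AHRfl/fl and cluster 17 in AHRmKO. Cluster 0 had 223 CPM and cluster 1, led by Gpnmb among others, 220.2 CPM. Cluster 2, led by F13a1, Mrc1 and Cd163, genes of tissue-resident macrophages, had 113 CPM (104 to 122), below both. Cluster 17 had 162 CPM. The cycling cluster 12 held nuclei of both libraries and had 169 CPM in AHRfl/fl (436 UMIs) and 185 CPM in AHRmKO (508 UMIs). Its log2 ratio was 0.13 (-0.06 to 0.32). Over the whole class the ratio of AHRmKO over AHRfl/fl was -0.17 (-0.25 to -0.10). It turned to 0.026 with a minimum of 3000 UMIs, and no direction is read from it.

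**Figure D1:**
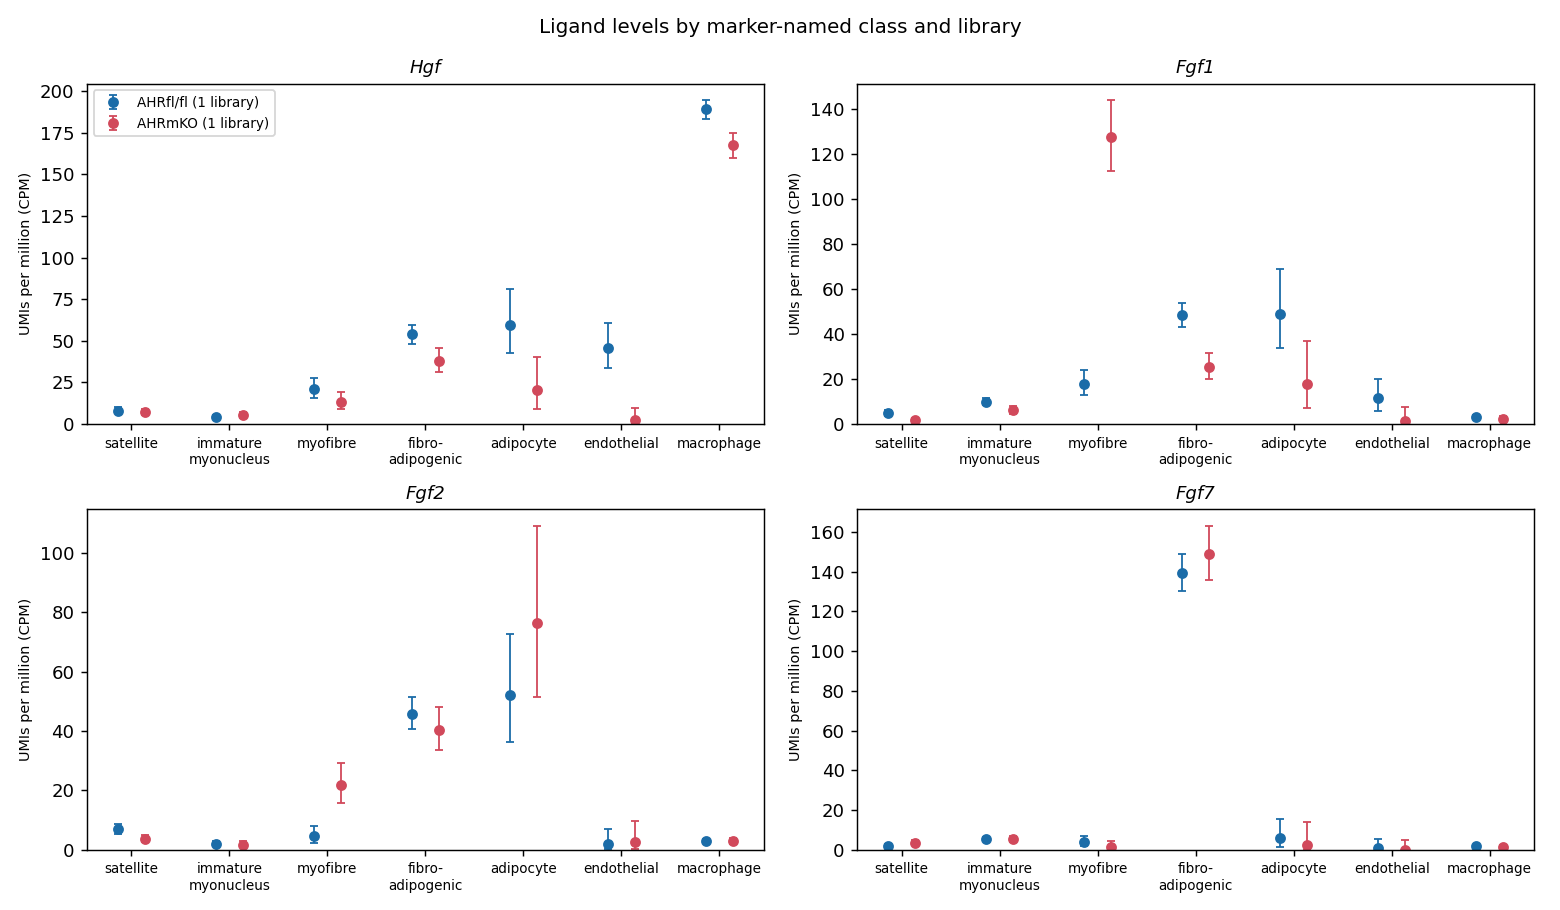
Levels of the 4 ligands in CPM of the class (y axis, linear, from 0) in 7 marker-named classes (x axis); each point is 1 library and bars are exact Poisson 95% intervals of the counts. Hgf is highest in macrophage-like nuclei (189 and 167 CPM) and Fgf7 in fibroadipogenic-like nuclei (139 and 149 CPM) of both libraries, while Fgf1 in myofibre-like nuclei is at 18.0 and 128 CPM.

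Fibroadipogenic or fibroblast-like nuclei, the connective tissue cells of muscle, were a second Hgf class, with 53.8 CPM in AHRfl/fl (348 UMIs; 48.3 to 59.8) and 37.9 CPM in AHRmKO (31.3 to 45.4). Macrophage markers were also detected there, all 13 of them, at a summed 1735 and 420 CPM. Per 100 macrophage-marker UMIs, this class held 3.10 Hgf UMIs (2.78 to 3.44) and 9.03 (7.47 to 10.8). Macrophage-like nuclei themselves held 2.09 (2.03 to 2.15) and 2.53 (2.42 to 2.64). The part of these markers in the Hgf level of this class was not tested.

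In endothelial-like nuclei, which line vessels, Hgf was at 45.7 CPM (48 UMIs) in AHRfl/fl and 2.67 CPM (2 UMIs) in AHRmKO. The log2 ratio was -3.87, with a counting interval of -7.18 to -2.17. The 13 macrophage markers, all detected there in both libraries, summed to 2966 and 504 CPM, and Hgf per 100 of their UMIs was 1.54 (1.14 to 2.04) and 0.529 (0.0641 to 1.91). The 33 AHRfl/fl nuclei with an Hgf UMI had a median of 6367 UMIs, 5356 CPM of macrophage markers and 3832 CPM of endothelial markers. The 210 without had 3407 UMIs, 2240 CPM of macrophage markers and 6835 CPM of endothelial markers. In AHRmKO the endothelial markers were at 2228 CPM in the 2 nuclei with an Hgf UMI and 8488 CPM in the 131 without. In adipocyte-like nuclei Hgf reached 59.6 CPM in AHRfl/fl (40 UMIs) and 20.4 CPM in AHRmKO (8 UMIs), with a log2 ratio of -1.52 (-2.85 to -0.43). Macrophage markers there summed to 2314 and 709 CPM, and Hgf per 100 of their UMIs was 2.57 (1.84 to 3.51) and 2.88 (1.24 to 5.67). The part of these marker levels in the 2 Hgf differences was not tested. Assigning each nucleus by its highest marker score moved the adipocyte-like ratio to -0.049 and the endothelial-like ratio to -1.21.

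Fgf7 was high in 1 class, which stood above the next by log2 values of 4.44 (3.19 to 6.43) and 4.68 (4.36 to 5.27). Fibroadipogenic or fibroblast-like nuclei had 139 CPM (902 UMIs; 130.5 to 149) and 149 CPM (460 UMIs; 136 to 163), which were 80.2% and 81.6% of its UMIs. The other 6 classes lay between 0 and 5.96 CPM. Thinned to 2000 UMIs, 18.1% (16.1 to 20.2) and 18.1% (15.2 to 21.3) of these nuclei held an Fgf7 UMI. The share was 0.459% and 0.165% in macrophage-like nuclei. Unthinned shares were 28.3% and 29.4%, against 0.613% and 0.784%. The libraries did not differ beyond counting error, with a log2 ratio of 0.09 (-0.07 to 0.26). That class was 1 cluster shared by both libraries. Fam227b, which spans Fgf7 on the other strand, had 843 UMIs (130.3 CPM) in AHRfl/fl and 26 UMIs (8.42 CPM) in AHRmKO in the same class. Since the use of strand is not stated, how the reads of this place were divided is uncertain.

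Fgf2, a heparin-binding FGF, was highest in adipocyte-like nuclei, with 52.1 CPM in AHRfl/fl (35 UMIs; 36.3 to 72.5) and 76.5 CPM in AHRmKO (30 UMIs; 51.6 to 109). Fibroadipogenic or fibroblast-like nuclei had 45.8 CPM (296 UMIs; 40.7 to 51.3) and 40.5 CPM (125 UMIs; 33.7 to 48.2) and supplied the larger share of UMIs, 53.7% and 43.9%. The top 2 classes did not differ beyond counting error in AHRfl/fl (log2 0.19, -0.36 to 0.70). In AHRmKO they did (0.91, 0.29 to 1.5), which turned to -0.31 with thinning. The order of these 2 classes is therefore not settled. In myofibre-like nuclei Fgf2 was at 4.50 CPM (11 UMIs) and 21.9 CPM (44 UMIs). Macrophage-like, immature myonucleus-like and endothelial-like nuclei lay between 1.74 and 2.90 CPM, and satellite-like nuclei had 6.98 and 3.55 CPM.

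Fgf1, an FGF that binds all FGF receptors and lacks a signal peptide, had a different leading class in each library. In AHRfl/fl the highest levels were in adipocyte-like nuclei at 49.1 CPM (33 UMIs; 33.8 to 69.0) and fibroadipogenic or fibroblast-like nuclei at 48.4 CPM (313 UMIs; 43.2 to 54.1), whose intervals overlap. In AHRmKO it was myofibre-like nuclei at 128 CPM (257 UMIs; 113 to 144), with fibroadipogenic or fibroblast-like nuclei next at 25.3 CPM (78 UMIs; 20.0 to 31.5). Myofibre-like nuclei of AHRfl/fl had 18.0 CPM (44 UMIs; 13.1 to 24.1). The intervals of the 2 libraries do not overlap, and the log2 ratio was 2.79 (2.36 to 3.32). It was 1.40 at a finer clustering (Leiden resolution 1.6) and 1.80 when nuclei were assigned by marker score. After thinning, 3.90% (2.33 to 6.10) and 17.7% (14.7 to 21) of these nuclei held an Fgf1 UMI, against 0.536% and 0.619% of macrophage-like nuclei. Unthinned shares were 7.59% and 27.0%, against 0.888% and 0.908%, at myofibre-like median depths of 4664 and 2990 UMIs.

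The Fgf1 difference lay between fibre clusters. Cluster 19, with 2 and 515 nuclei, held 255 of the 257 AHRmKO UMIs, at 143 CPM (126 to 162). Cluster 7, the fibre cluster present in both libraries with 371 and 62 nuclei, had 17.2 CPM in AHRfl/fl (30 UMIs) and 8.54 CPM in AHRmKO (2 UMIs). The log2 ratio within it was -0.97 (-4.12 to 0.97). Cluster 5, with 88 and 0 nuclei, had 20.2 CPM (14 UMIs). Cluster and library cannot be told apart for these nuclei. Cluster 7 was led by Trp63 and by Trim63 and Fbxo32, ubiquitin ligases of muscle atrophy, and cluster 19 by Agbl1, Mylk4 and Hs3st5. Over the whole class, the 14 myofibre markers summed to 13716 and 33794 CPM and the 11 immature myonucleus markers to 3442 and 505 CPM. Their part in the Fgf1 difference was not tested. Fgf2 moved the same way in the same class, with 42 of its 44 AHRmKO UMIs in cluster 19.

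**Figure D2:**
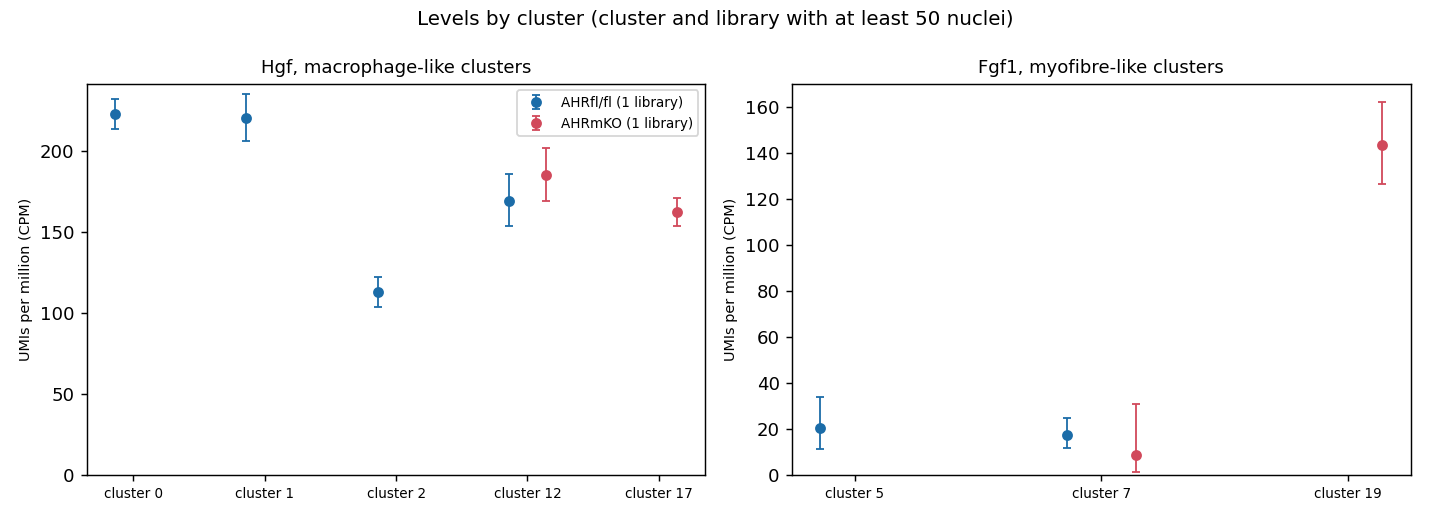
Hgf in macrophage-like clusters (left) and Fgf1 in myofibre-like clusters (right), in CPM of the cluster (y axis, linear, from 0); each point is a cluster in 1 library with at least 50 nuclei, and bars are exact Poisson 95% intervals. Hgf is lowest in cluster 2 at 113 CPM; Fgf1 is at 143 CPM in cluster 19 and between 8.54 and 20.2 CPM in clusters 5 and 7.

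Met, the HGF receptor, was highest in satellite cell or myoblast-like nuclei. They had 528 CPM (5370 UMIs; 514 to 542) and 500.2 CPM (4936 UMIs; 486 to 514), which were 45.6% and 74.5% of Met UMIs, or 47.6% and 49.8% if the 7 classes held equal UMIs. Among the 7 classes, immature myonucleus-like nuclei followed at 172 CPM in AHRfl/fl, and myofibre-like nuclei at 141 CPM in AHRmKO. The step to that next class was 1.61 (1.56 to 1.68) and 1.83 (1.66 to 2.01) on the log2 scale. Adipocyte-like nuclei had 124 and 122 CPM, and endothelial-like nuclei 79.0 and 88.1 CPM. Met was lowest in macrophage-like nuclei, at 41.1 and 34.8 CPM, and fibroadipogenic or fibroblast-like nuclei, at 29.1 and 25.9 CPM. Free RNA would give 25.2 and 28.9 CPM by the profile of 200 to under 500 UMIs and 30.8 and 18.9 CPM by the other. Thinned to 2000 UMIs, 58.4% (56.4 to 60.4) and 55.2% (53.0 to 57.4) of satellite-like nuclei held a Met UMI, against 7.46% and 6.02% of macrophage-like nuclei. Unthinned shares were 76.5% and 74.5%, against 10.8% and 10.3%.

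Fgfr4, an FGF receptor of the myogenic lineage, had the same leading class. Satellite-like nuclei had 727 CPM (7394 UMIs; 710.2 to 743) and 692 CPM (6827 UMIs; 676 to 708), which were 53.8% and 71.6% of its UMIs, or 68.1% and 64.0% with equal classes. Among the classes compared, immature myonucleus-like nuclei followed at 198 and 246 CPM, lower by 1.87 (1.82 to 1.93) and 1.49 (1.42 to 1.56) on the log2 scale. Myofibre-like nuclei had 40.5 and 34.8 CPM. The other 4 classes lay between 18.7 and 35.3 CPM, where free RNA would give 20.5 and 22.6 CPM by the one profile and 47.3 and 28.4 CPM by the other. After thinning, 71.1% (69.3 to 72.9) and 69.2% (67.1 to 71.2) of satellite-like nuclei held an Fgfr4 UMI, against 4.69% and 4.91% of macrophage-like nuclei. Unthinned shares were 86.8% and 85.1%, against 6.91% and 9.36%.

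Fgfr1, a receptor of many tissues, was spread over 5 classes. Adipocyte-like nuclei had 398 CPM (351 to 448) and 528 CPM (458 to 605), fibroadipogenic or fibroblast-like nuclei 386 and 362 CPM, and immature myonucleus-like nuclei 299.8 and 429.8 CPM. Satellite-like nuclei had 284 CPM (2892 UMIs; 274 to 295) and 248 CPM (2445 UMIs; 238 to 258), and myofibre-like nuclei 221 and 199 CPM. Endothelial-like nuclei (64.7 and 50.7 CPM) and macrophage-like nuclei (52.6 and 40.6 CPM) were lowest. Adipocyte-like and fibroadipogenic-like nuclei did not differ beyond counting error in AHRfl/fl (log2 0.04, -0.15 to 0.22). With nuclei assigned by marker score, adipocyte-like nuclei stood below other classes, by -0.65 in AHRfl/fl and -0.46 in AHRmKO, so which class leads is not settled. The largest share of its UMIs lay in immature myonucleus-like nuclei, 41.5% and 44.1%. Within macrophage-like clusters of AHRfl/fl, Fgfr1 was at 94.2 CPM in cluster 2, where Hgf was lowest, and at 34.3 and 39.5 CPM in clusters 0 and 1.

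**Figure D3:**
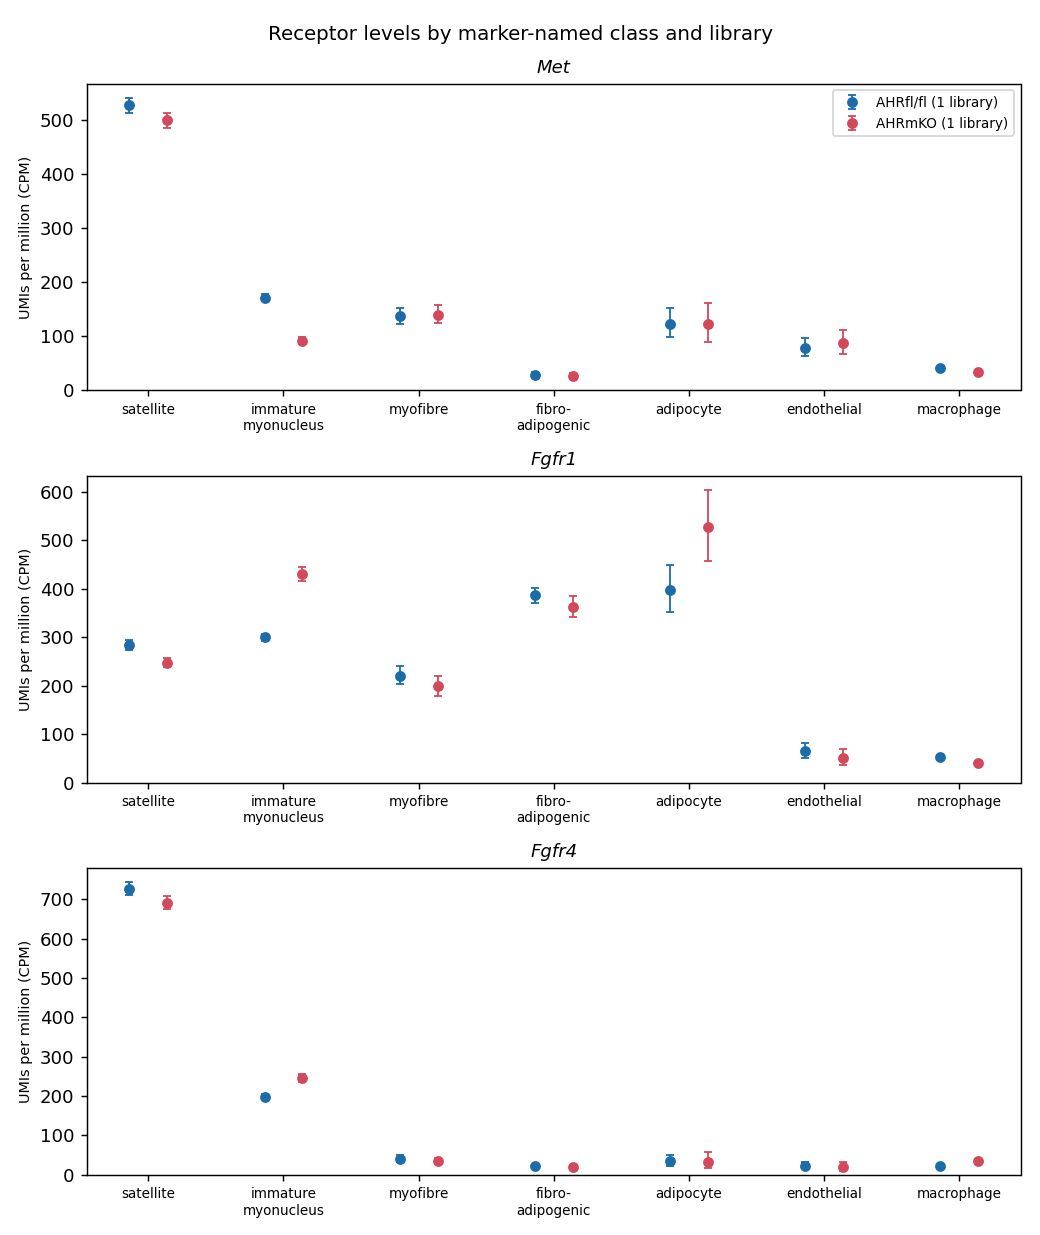
Levels of the 3 receptors in CPM of the class (y axis, linear, from 0) in 7 marker-named classes (x axis); each point is 1 library and bars are exact Poisson 95% intervals. Met (528 and 500.2 CPM) and Fgfr4 (727 and 692 CPM) peak in satellite-like nuclei, while Fgfr1 lies between 199 and 528 CPM in 5 classes.

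Met and Fgfr4 levels were lower, and Fgfr1 levels not lower, in nuclei that held Myog in place of Pax7. This was measured over satellite-like and immature myonucleus-like nuclei together. Met was at 471 CPM (456 to 486) in AHRfl/fl nuclei with Pax7 and no Myog UMI, at 404 CPM with both and at 138 CPM (130.4 to 145) with Myog and no Pax7. In AHRmKO the values were 489.6 CPM (474 to 505), 294 CPM and 106 CPM (94.8 to 117). Fgfr4 was at 628, 531 and 188 CPM in AHRfl/fl and at 670.0, 522 and 289 CPM in AHRmKO. Fgfr1 was at 277, 281 and 300.3 CPM in AHRfl/fl and at 268, 341 and 394 CPM in AHRmKO. The order was the same in both libraries for each receptor, falling for Met and Fgfr4 and rising for Fgfr1. In AHRfl/fl the Fgfr1 interval of nuclei with both UMIs (267 to 296) overlapped those with Pax7 alone (266 to 288) and Myog alone (289 to 312). Nuclei with neither UMI (1569 and 1272) were also low, at 199 and 173 CPM of Met and 209.8 and 316 CPM of Fgfr4, with 317 and 389 CPM of Fgfr1. These states rest on single UMIs, and Myog was at 96.2 and 12.1 CPM even in macrophage-like nuclei. The part of free RNA in these states was not tested.

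**Figure D4:**
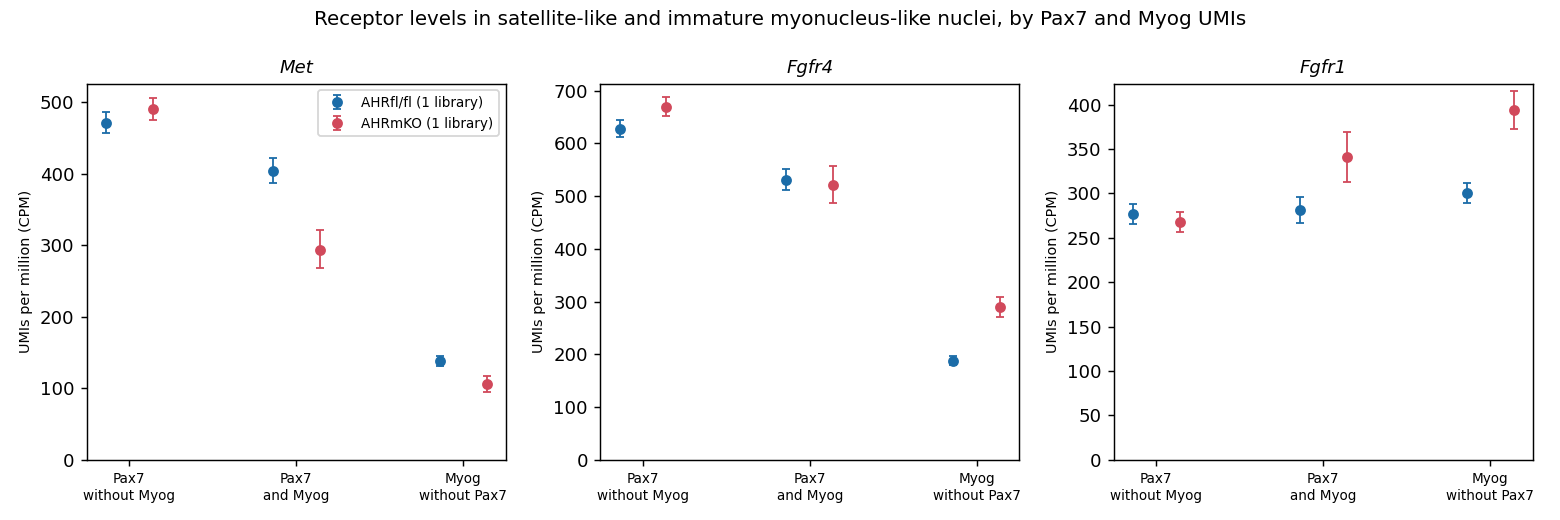
Met, Fgfr4 and Fgfr1 in satellite-like and immature myonucleus-like nuclei grouped by Pax7 and Myog UMIs (x axis), in CPM of the group (y axis, linear, from 0); each point is 1 library and bars are exact Poisson 95% intervals. Met falls from 471 to 138 CPM in AHRfl/fl and from 489.6 to 106 CPM in AHRmKO, while Fgfr1 goes from 277 to 300.3 CPM and from 268 to 394 CPM.

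Most satellite-like nuclei lay in cluster 10 in AHRfl/fl (1662 and 32 nuclei) and in cluster 11 in AHRmKO (130 and 1667), and the cycling cluster 8 held 665 and 348. Met stood at 534 CPM in cluster 10, at 502 and 494 CPM in cluster 11, and 519 and 510.2 CPM in cluster 8. The 10 cell cycle genes summed to 294 CPM in cluster 10, 1625 and 1987 CPM in cluster 11 and 4059 and 6177 CPM in cluster 8. Fgfr4 was at 766 CPM in cluster 10, 367 CPM (147 UMIs) and 668 CPM (4987 UMIs) in cluster 11, and 695 and 779 CPM in cluster 8. Within cluster 8 its log2 ratio was 0.16 (0.07 to 0.26) and that of Met -0.02 (-0.13 to 0.09). Within cluster 11 the ratios were 0.86 (0.63 to 1.11) for Fgfr4, 0.35 (0.02 to 0.70) for Fgfr1 and -0.02 (-0.23 to 0.19) for Met. Immature myonucleus-like nuclei lay mostly in clusters 3 and 4 in AHRfl/fl and in cluster 15 in AHRmKO. Cluster 3 had 329 CPM of Met and 376 CPM of Fgfr4, cluster 4 had 95.6 and 111 CPM, and cluster 15 in AHRmKO 84.5 and 245 CPM.

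Between libraries, 49 pairs of member and class were compared, and 44 had the 20 UMIs needed to be counted. Of these, 2 were at least 2-fold higher in AHRmKO and 4 at least 2-fold lower. In myofibre-like nuclei 2 of 6 members were higher, Fgf1 and Fgf2 (log2 ratio 2.16, 1.30 to 3.38, and 1.22 at the finer clustering), where 8.17% of 11410 genes were higher and 22.6% lower. Fgfr1 and Fgfr4 had ratios of -0.15 (-0.34 to 0.04) and -0.22 (-0.68 to 0.24) over that class, but of 0.82 (0.45 to 1.17) and 1.12 (0.12 to 2.06; 44 and 13 UMIs) within its cluster 7. In adipocyte-like nuclei 2 of 6 were lower, Hgf and Fgf1 (-1.44, -2.88 to -0.26), with 8.69% of genes higher and 15.2% lower. In endothelial-like nuclei 1 of 4 was lower, Hgf, with 5.11% of genes higher and 18.6% lower. In satellite-like nuclei 1 of 7 was lower, Fgf1 at 4.72 CPM (48 UMIs) and 1.62 CPM (16 UMIs; -1.30, -2.46 to -0.70, and -0.92, short of 2-fold, with the libraries clustered separately), with 7.35% higher and 17.4% lower. None of 7 members passed 2-fold in macrophage-like (background 4.02% higher and 17.3% lower), fibroadipogenic-like (5.49% and 17.4%) or immature myonucleus-like nuclei (4.91% and 18.4%). Scaling by the median of ratios moved the median log2 ratio of all genes from -0.25 to -0.050 in myofibre-like and from -0.20 to -0.022 in immature myonucleus-like nuclei. Under it, the higher genes made up 37.7% in place of 26.5% of those past 2-fold in the first class and 32.5% in place of 21.1% in the second.

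Over the pooled satellite-like class, the receptors had log2 ratios of -0.08 (-0.13 to -0.02) for Met, -0.07 (-0.12 to -0.02) for Fgfr4 and -0.20 (-0.28 to -0.12) for Fgfr1. Met reversed under 5 of 11 alternatives, Fgfr4 under 4 and Fgfr1 under 1, so no direction is read from them. Within clusters 8 and 11 Fgfr4 was higher in AHRmKO, unlike in the pooled class. In immature myonucleus-like nuclei Met was at -0.89 (-1.01 to -0.79) and Fgfr1 at 0.52 (0.46 to 0.58). Both reversed with a minimum of 1000 UMIs, to 1.17 and -0.99, and without the doublet and mitochondrial filters, to 1.16 and -1.15. Fgfr4 there was at 0.31 (0.24 to 0.39). Clusters 3 and 4 held nearly only AHRfl/fl nuclei, so cluster and library cannot be told apart over this pooled class. Within cluster 15, with 57 and 1576 nuclei, Met was at -0.27 (-0.88 to 0.41; 22 and 708 UMIs). Fgfr1 was at 0.56 (0.21 to 0.94) and Fgfr4 at 0.59 (0.12 to 1.12) within it. Fgf1 in fibroadipogenic or fibroblast-like nuclei was at -0.92 (-1.31 to -0.58), and none of 11 alternatives reversed it (-1.19 to -0.38).

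**Figure D5:**
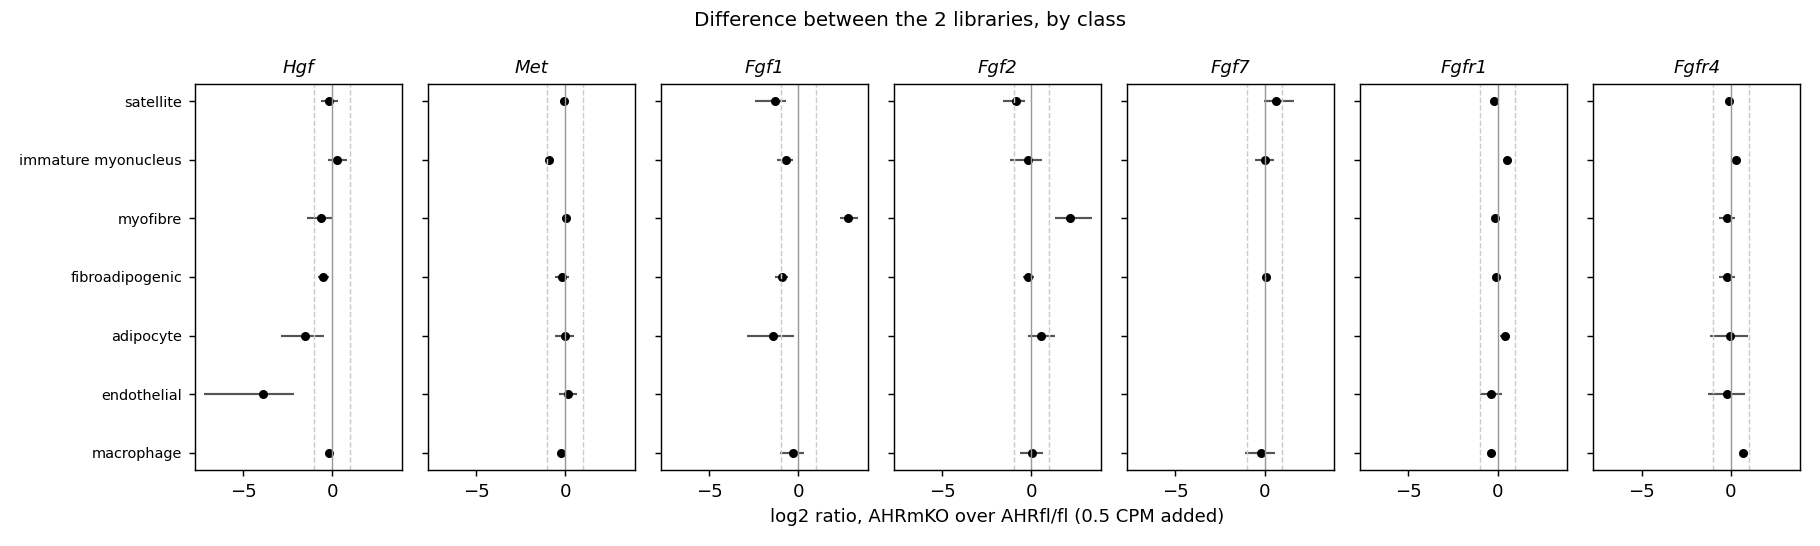
Log2 ratio of AHRmKO over AHRfl/fl (x axis, 0.5 CPM added on both sides) for each member (panels) and class (rows) with at least 20 UMIs; lines are exact conditional binomial 95% intervals, the grey line is 0 and the dashed lines mark 2-fold. Fgf1 (2.79) and Fgf2 (2.16) in myofibre-like nuclei lie right of the upper dashed line and Hgf in endothelial-like nuclei (-3.87) left of the lower one.

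Other genes of the pathway were read from fixed lists in satellite-like nuclei, the leading class of Met and Fgfr4. In that class 7.35% of all genes were higher and 17.4% lower. Cluster 10 held 67.6% of its AHRfl/fl nuclei and cluster 11 held 81.4% of its AHRmKO nuclei. Cluster and library therefore cannot be told apart in the pooled ratios of this class, for these lists as for the members. Of the 5 other FGF receptors and coreceptors, 3 were counted and 1 was lower, Fgfr2, a receptor of FGF7 among others, at 406 and 68.8 CPM (log2 ratio -2.55, -2.68 to -2.44). Fgfr2 was also lower in AHRmKO in the other 6 classes, by -4.44 in myofibre-like and at the least by -0.57 in adipocyte-like nuclei. In myofibre-like nuclei it stood at 2569 and 118 CPM, and in cluster 7 alone at 3405 and 128 CPM. Its ratios were -2.34, -2.56 and -1.70 within clusters 8, 11 and 12. Within cluster 15 Fgfr2 was at 78.7 and 55.5 CPM (17 and 465 UMIs), a ratio of -0.50 whose interval includes 0 (-1.20 to 0.29). Even macrophage-like nuclei had 337 and 80.2 CPM, where free RNA would give 97.4 and 17.2 CPM by the profile of at most 100 UMIs and 15.7 and 9.73 CPM by the other. Of 15 other FGF ligands 2 were counted in satellite-like nuclei and neither passed 2-fold; Fgf16 was at 14.6 and 20.7 CPM. Fgf10 was highest in adipocyte-like nuclei, at 56.6 CPM (38 UMIs) and 5.10 CPM (2 UMIs). Of the 4 intracellular FGF homologous factors, relatives of FGFs that are not secreted, all were counted and none passed. Fgf13 was highest in myofibre-like nuclei at 3911 and 1951 CPM, and Fgf14 in adipocyte-like nuclei at 133 and 17.8 CPM. Klb, a coreceptor for endocrine FGFs, was highest in adipocyte-like nuclei at 86.4 and 48.4 CPM.

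Among 12 genes that activate HGF or belong to the MET family, 6 were counted in satellite-like nuclei and 1 was lower, Plat, tissue plasminogen activator, at 17.5 and 5.17 CPM (-1.67, -2.24 to -1.30). Plaur, the urokinase receptor, was highest in macrophage-like nuclei at 116 and 101 CPM. Of 12 heparan sulfate proteoglycans 11 were counted and 3 were lower in satellite-like nuclei, where 17.4% of all genes were lower. These were Sdc1 (31.5 and 11.8 CPM), Sdc3 (24.2 and 8.01 CPM) and Gpc3 (56.4 and 8.41 CPM). The list's median was -0.52, beside -0.10 over all genes. Gpc6, a glypican, was highest in satellite-like nuclei at 1719 and 1196 CPM, and Hspg2, perlecan, in immature myonucleus-like nuclei at 336 and 517 CPM.

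All 10 receptor adaptors were counted in satellite-like nuclei and none passed 2-fold, with a median of -0.02. Gab2 (2350 and 2233 CPM) and Grb2 (409 and 407 CPM) were highest in macrophage-like nuclei. All 13 feedback and target genes of receptor to ERK signalling were counted, and 3 were higher: the early response gene Egr1 at 42.7 and 236 CPM (2.45, 2.32 to 2.62), Etv4 at 4.42 and 19.9 CPM (2.05, 1.69 to 2.67) and Spry4 at 1.97 and 4.46 CPM (1.01, 0.39 to 2.02). None was 2-fold lower, and the median was 0.45, beside -0.10 over all genes. Of all genes in this class 7.35% were higher and 17.4% lower. Spred1, a brake on ERK signalling, was at 150.4 and 90.3 CPM (-0.73), and Spry1, another, at 47.7 and 32.3 CPM (-0.55). Spred1 and Egr1 were highest in fibroadipogenic or fibroblast-like nuclei, at 388 and 329 CPM and at 48.8 and 603 CPM. Egr1 was at least 2-fold higher in AHRmKO in all 7 classes, from 1.24 in macrophage-like to 5.30 in adipocyte-like nuclei. Of the 10 cell cycle genes 3 were higher in satellite-like nuclei, beside the same 7.35% of all genes, Mki67 (179 and 483 CPM), Cenpe (143 and 317 CPM) and Aspm (79.2 and 215 CPM), and Top2a was at 371 and 457 CPM. The list's median was 0.83, beside -0.10 over all genes. Its sum differed between satellite-like clusters, as given above, and the part of that in these ratios was not tested. In macrophage-like nuclei 8 of the 10 were higher, beside 4.02% of all genes. In immature myonucleus-like nuclei 0 were higher and 1 was lower.

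Adipocyte-like nuclei, where Fgfr1 was highest by class sums though that lead is not settled, held few UMIs, 671515 and 392350 in all. In this class 8.69% of all genes were higher and 15.2% lower. Past 2-fold were 1 of 1 other FGF ligand counted, 1 of 2 homologous factors, 1 of 6 proteoglycans and 1 of 9 adaptors. Of 7 feedback and target genes counted 2 were higher and 1 lower, and of 9 cell cycle genes 2 were higher. There Fgf10 (-3.35, -6.57 to -1.52) and Fgf14 (-2.86, -4.25 to -1.79) were lower, as were Sdc3 with 24 and 3 UMIs (-2.15, -4.60 to -0.51) and Spry4 with 26 and 4 UMIs (-1.87, -3.90 to -0.40). Egr1, with 6 and 146 UMIs, was higher by 5.30 (4.22 to 6.85). The adaptor Shc1 was at 26.8 and 68.8 CPM (1.34, 0.45 to 2.31) and the transcription factor Etv1 at 19.4 and 43.3 CPM (1.14, 0.03 to 2.33). Of the cell cycle genes, Tpx2 was at 28.3 and 71.4 CPM (1.32, 0.44 to 2.26) and Aspm at 19.4 and 68.8 CPM (1.80, 0.83 to 2.91). Spry4 was thus lower in this class and higher in satellite-like nuclei, a difference that was not tested.

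Over the 14 sums of class and library, the genes whose log2(CPM + 1) was most like that of each member were named among 14745 genes. As a description, Pearson's r with Hgf was 0.98 for Pid1, 0.97 for Reps2 and 0.97 for Apobec1. With Fgfr4 it was 0.97 for Gm35019, 0.96 for St8sia2 and 0.96 for Iqsec3, and with Met 0.87 for Jpx, Ipp and Cecr2. With Fgf7 it was 0.97 for Osr1, 0.95 for Mmp16 and 0.95 for Dchs2, and with Fgf2 0.98 for Cacng7, 0.93 for Map6 and 0.92 for Twist2. With Fgf1 it was 0.89 for Art3, 0.87 for Fxyd1 and 0.86 for Gm32569, and with Fgfr1 0.94 for Rai2, 0.94 for Bmpr1a and 0.93 for Pard3. The 14 points share 2 libraries and their free RNA.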

How the data were processed

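Raw UMI counts for every barcode of both libraries were deposited by the authors (10x Chromium 3′ HT). Per the file headers the format is that of Cell Ranger 4, while the submitters' processing notes name Cell Ranger 7.0.1 and mm10. The handling of introns and strand is not given in the sources used here. Nuclei needed 2000 UMIs and 200 genes. Their mitochondrial UMIs could reach 5% or, where higher, 3 median absolute deviations above the median (limits 5% and 8.97%). Scrublet's top scores, 0.4% per 1000 nuclei, removed 1154 and 241 doublets. Counts scaled to 10000 were clustered for both libraries together (scanpy 1.11.5; 2000 variable genes without members or list genes, 30 components, 15 neighbours, Leiden 0.8). A cluster took the class with the largest share of markers at least 2-fold over the median of other clusters (10 CPM added, 3 markers needed), and 18 of 20 were named. Names were rebuilt from markers and are not the authors'. Sums per class and library are given as CPM with exact Poisson intervals, shares with Clopper-Pearson intervals. Log2 ratios add 0.5 CPM, which understates changes of low genes. Between libraries there is no test, and genes needed 20 UMIs to be counted. All 7 members were named. Also named were the 3 genes most like each in pattern (at least 200 UMIs), the 2 highest genes of each list, and list genes past 2-fold in satellite-like or adipocyte-like nuclei, the classes with the highest receptor levels. One gene that this rule names is not reported here. Genes named beyond that rule (Ahr, Spry1, Fam227b, Pax7, Myog, overlap partners and the genes leading clusters) were chosen after their values were seen. The ratio computation was checked on simulated data. Gene positions come from GENCODE M21, which held 32158 of the 32285 gene IDs. Members, lists and naming thresholds were chosen with earlier results of these data known.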

Additional observations from a re-analysis of the deposited data

Results flagged for a closer look

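Differences between the libraries pointed opposite ways in separate classes, each beyond counting error, for 4 members. The share of all genes that do the same is not given, so nothing particular to these members is read from this. The differences between classes were not tested. Fgf1 had a log2 ratio of AHRmKO over AHRfl/fl of 2.79 in myofibre-like and -1.44 in adipocyte-like nuclei. Fgf2 had 2.16 in myofibre-like and -0.89 in satellite-like nuclei, but its satellite-like intervals overlapped with assignment by marker score (6.09 and 5.04 CPM), and within cluster 8 the ratio was 0.22 (-0.87 to 1.31). Fgfr1 had 0.52 in immature myonucleus-like and -0.37 in macrophage-like nuclei, and the first reversed under 2 of 11 alternatives. With the libraries clustered separately, Fgfr1 in macrophage-like nuclei was at 50.7 and 49.6 CPM, with overlapping intervals. Its levels there, 52.6 and 40.6 CPM, compare with 50.1 and 24.2 CPM that free RNA of at most 100 UMIs would give. Fgfr4 had 0.68 in macrophage-like and -0.071 in satellite-like nuclei. Fgfr4 in macrophage-like nuclei (21.8 and 35.3 CPM) is near what free RNA would give, and its ratio reversed under 3 alternatives. The satellite-like ratio of Fgfr4 reversed under 4, so no opposite direction is read for this member.

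Barcodes of 500 to under 2000 UMIs were not in the nuclei compared in the report. Among them the AHRmKO library stood above AHRfl/fl, beyond both counting intervals, for Fgf1 (8.19 and 2.75 CPM), Fgf2 (6.60 and 3.97 CPM), Fgf7 (10.2 and 7.51 CPM) and Fgfr4 (125.5 and 107 CPM). Hgf was lower there in AHRmKO, at 43.2 CPM (40.3 to 46.2) against 58.3 CPM (55.4 to 61.3), and Met and Fgfr1 had overlapping intervals. The share of all genes whose intervals separate in such barcodes is not given, so nothing particular to these members is read from this. At 200 to under 500 UMIs Hgf was higher in AHRmKO, at 45.5 CPM (43.6 to 47.4) against 39.2 CPM (37.1 to 41.4). So were Met (165 against 138 CPM), Fgf1 (6.85 against 2.14 CPM) and Fgf2 (5.45 against 3.01 CPM). The same held for Fgf7 (14.2 against 6.18 CPM) and Fgfr4 (129.2 against 112.5 CPM), while Fgfr1 was at 122.8 CPM in both libraries.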

How the results depend on the processing

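Of 19 log2 ratios of AHRmKO over AHRfl/fl followed under 11 alternatives (12 of these pairs of gene and class were chosen after the data were seen), 7 that lay beyond counting error reversed at least once. Fgf2 in adipocyte-like and Fgf7 in fibroadipogenic-like nuclei, whose intervals include 0, also changed sign (as low as -0.88 and -0.16). Fgf1 and Fgf2 in myofibre-like nuclei stayed past 2-fold under all 11 (1.40 to 3.09 and 1.22 to 2.76). Some alternatives form and name the classes anew. The cause of each change below was not tested. These ratios, and log2 steps from a member's highest class to the next, moved beyond the counting interval or reversed. With a minimum of 1000 UMIs, the ratio in macrophage-like nuclei was -0.32 for Hgf and 0.34 for Fgfr4 and in satellite-like nuclei was -0.0022 for Met. That in fibroadipogenic-like nuclei was -0.087 for Fgf7 and in endothelial-like nuclei was -1.37 for Hgf. That in immature myonucleus-like nuclei was 1.17 for Met, -0.99 for Fgfr1 and 0.079 for Fgfr4. The step in AHRmKO was 0.42 for Met, 2.92 for Fgf7 and 1.82 for Fgfr4 and in AHRfl/fl was 2.01 for Fgfr4. With a minimum of 3000 UMIs, the ratio in macrophage-like nuclei was 0.026 for Hgf and -0.52 for Fgfr4 and in satellite-like nuclei was 0.021 for Met, 0.11 for Fgfr4 and -0.058 for Fgfr1. That in fibroadipogenic-like nuclei was 0.41 for Fgf7 and in immature myonucleus-like nuclei was -0.14 for Met and 0.65 for Fgfr4. The step in AHRfl/fl was 1.97 for Met and 1.79 for Fgfr4 and in AHRmKO was 1.26 for Fgfr4. When the libraries were clustered separately, the ratio in satellite-like nuclei was 0.088 for Met and -0.13 for Fgfr4 and in immature myonucleus-like nuclei was -0.39 for Met. That in macrophage-like nuclei was 1.61 for Fgfr4. The step in AHRfl/fl was 1.53 for Fgfr4 and in AHRmKO was 1.14 for Fgfr4. At Leiden resolution 1.6, the ratio in macrophage-like nuclei was -0.094 for Hgf and -0.16 for Fgfr4 and in satellite-like nuclei was 0.15 for Met, 0.15 for Fgfr4 and -0.053 for Fgfr1. That in myofibre-like nuclei was 1.40 for Fgf1 and 1.22 for Fgf2 and in immature myonucleus-like nuclei was -0.71 for Met, 0.31 for Fgfr1 and 0.73 for Fgfr4. The step in AHRfl/fl was 1.52 for Met and 1.31 for Fgfr4 and in AHRmKO was 0.76 for Fgf1 and 0.74 for Fgfr4. When nuclei were assigned by marker score, the ratio in macrophage-like nuclei was -0.26 for Hgf and -0.54 for Fgfr4 and in satellite-like nuclei was 0.084 for Met, 0.19 for Fgfr4 and 0.019 for Fgfr1. That in myofibre-like nuclei was 1.80 for Fgf1 and in adipocyte-like nuclei was -0.049 for Hgf. That in endothelial-like nuclei was -1.21 for Hgf and in fibroadipogenic-like nuclei was -0.38 for Fgf1. That in immature myonucleus-like nuclei was -0.20 for Met and 0.79 for Fgfr4. With it the step in AHRfl/fl was 1.03 for Hgf, 1.72 for Met, -0.71 for Fgf2 and -0.65 for Fgfr1 and in AHRmKO was 0.82 for Hgf, 2.01 for Met, 0.94 for Fgf1, -0.40 for Fgf2, 4.18 for Fgf7, -0.46 for Fgfr1 and 1.31 for Fgfr4. Without the doublet and mitochondrial filters, the ratio in satellite-like nuclei was 0.086 for Met, 0.11 for Fgfr4 and -0.049 for Fgfr1 and in fibroadipogenic-like nuclei was 0.28 for Fgf7 and -0.84 for Hgf. That in immature myonucleus-like nuclei was 1.16 for Met, -1.15 for Fgfr1 and 0.44 for Fgfr4 and in macrophage-like nuclei was 0.0099 for Fgfr4. With it the step in AHRfl/fl was 1.22 for Met and 1.58 for Fgfr4 and in AHRmKO was 0.15 for Met, 1.96 for Fgf1, 2.58 for Fgf7 and 1.25 for Fgfr4. After subtraction of free RNA of at most 100 UMIs, the ratio in macrophage-like nuclei was -0.37 for Hgf and 4.08 for Fgfr4 and in satellite-like nuclei was -0.30 for Met, -0.29 for Fgfr4 and -0.32 for Fgfr1. That in fibroadipogenic-like nuclei was -0.15 for Fgf7 and in immature myonucleus-like nuclei was -1.20 for Met and 0.44 for Fgfr1. With it the step in AHRfl/fl was 1.81 for Met and 2.17 for Fgfr4 and in AHRmKO was 1.61 for Fgfr4. After subtraction of free RNA of 200 to under 500 UMIs, the ratio in satellite-like nuclei was -2.51 for Fgf1 and in immature myonucleus-like nuclei was -1.22 for Met. That in macrophage-like nuclei was 2.94 for Fgfr4. With it the step in AHRfl/fl was 1.77 for Met and 1.99 for Fgfr4 and in AHRmKO was 2.07 for Met, 5.49 for Fgf7 and 1.58 for Fgfr4. When nuclei were thinned to 2000 UMIs, the ratio in macrophage-like nuclei was -0.50 for Hgf and 0.19 for Fgfr4 and in myofibre-like nuclei was 2.32 for Fgf1. That in adipocyte-like nuclei was -0.88 for Fgf2 and 0.081 for Fgfr1 and in fibroadipogenic-like nuclei was -0.16 for Fgf7 and -1.06 for Hgf. That in immature myonucleus-like nuclei was -1.05 for Met. The step in AHRmKO was 2.54 for Hgf, -0.31 for Fgf2 and 0.081 for Fgfr1 and in AHRfl/fl was 1.77 for Fgfr4. With mitochondrial genes, Gm42418 and AY036118 left out of the scaling, the ratio in satellite-like nuclei was -0.017 for Met and -0.010 for Fgfr4. Under median-of-ratios scaling, the ratio in satellite-like nuclei was -0.012 for Met and -0.0053 for Fgfr4 and in immature myonucleus-like nuclei was -0.72 for Met, 0.69 for Fgfr1 and 0.49 for Fgfr4. With no minimum of UMIs the genes past 2-fold were 7746 in place of 1887 in adipocyte-like, 7662 in place of 2270 in endothelial-like, 4976 in place of 3268 in fibroadipogenic-like and 6876 in place of 3512 in myofibre-like nuclei. The remaining values, 133 ratios, 98 steps and 10 counts, stayed within that interval or within 1.5 times the main count. No paired analysis was possible because each group has 1 library. Counting error is the only error measured, and the adipocyte-like and endothelial-like classes, at 75 and 133 nuclei in AHRmKO, limit what is detectable there.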
